A study of Homo sapiens with 12 samples.

Results

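RBE is one of 3 established lines of human intrahepatic cholangiocarcinoma (ICC), a cancer of the bile ducts inside the liver, in which LKB1 was knocked down by siRNA. The genes described here are those whose response to the knockdown differed in RBE from that in HuH-28 and SSP-25. For each gene the difference between LKB1 siRNA and control siRNA in RBE was set against the mean of the same differences in the other 2 lines, on a log2 scale. This quantity is called the RBE contrast. A positive contrast can stand for a rise in RBE, for a fall in the other lines, or for both, so the response of each line is given beside it. Of 16146 genes tested, 589 (3.65%) were called in the RBE contrast, by an absolute log2 value above 1 and an adjusted p under 0.05. Of these, 259 were particular to RBE, which means that RBE responded in the direction of the contrast and differed from HuH-28 and from SSP-25 in turn, each at an adjusted p under 0.05. A further class, which overlaps with it by 82 genes, held 101 genes with opposite directions, where RBE moved one way and the mean of the other lines the other way.

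The groups were RBE with LKB1 siRNA, RBE with scrambled control siRNA, and the same pair in HuH-28 and in SSP-25. Each of the 6 groups had 2 samples, 12 in all, and RNA was taken 48 h after transfection of each. HuH-28 was grown in MEM and the others in RPMI1640, so for HuH-28 line and medium cannot be told apart. The mean of the other lines rests on 2 lines, and no source used here says whether the 2 samples of a group were separate cultures. The p-values then measure only the spread between these samples, which may be technical. With 2 samples against 2 an exact permutation test of a single gene cannot go below p = 0.33, so every test rests on a spread pooled over groups and genes.

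LKB1, the protein of STK11, is a serine/threonine kinase and tumor suppressor. It activates AMPK, which restrains mTORC1 when energy is low, and a family of AMPK-related kinases. Among these, the salt-inducible kinases keep the CRTC coactivators of CREB out of the nucleus, and the MARK kinases act in cell polarity. Bile duct epithelium, the tissue ICC is named for, is marked by simple keratins such as KRT7, KRT8, KRT18 and KRT19 and by the adhesion molecules EPCAM and CDH1.

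STK11 itself was lower with LKB1 siRNA in all 3 lines. Its signal, the authors' normalized reads per kilobase, was 130 and 156 in RBE with LKB1 siRNA and 485 and 430 in RBE with control siRNA. In HuH-28 it was 223 and 207 with LKB1 siRNA against 698 and 600 with control siRNA, and in SSP-25 61.8 and 72.8 against 464 and 460. The groups did not overlap in any line. The change was -1.68 in RBE, -1.59 in HuH-28 and -2.77 in SSP-25 (log2, SE 0.11 each). The knockdown in RBE could not be distinguished from that in HuH-28 (difference -0.09 ± 0.16 SE, adjusted p = 0.78, limma), but was smaller than that in SSP-25 by 1.09 (adjusted p = 0.0017). The RBE contrast of STK11 was 0.50 ± 0.14 (SE, adjusted p = 0.037), below the threshold on size, and its adjusted p was above 0.05 when any of 8 of the 12 samples was left out, with values between 0.37 and 0.63. What part the unequal knockdown has in other contrasts with SSP-25 was not tested.

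The samples summed to between 9910000 and 11730000 units of signal, with a read depth that is not known. Genes used as markers of cell types were not equal between lines. In RBE 3 of 9 fibroblast markers reached a mean signal of 10, with sums of 284 to 295 with LKB1 siRNA and 424 to 443 with control siRNA. In HuH-28 8 of 9 did, with sums of 53800 to 54600 and 50500 to 52700, and in SSP-25 6 of 9, with 11500 to 12000 and 6830 to 7260. The sum of 8 epithelial markers in RBE was 41300 to 41500 with LKB1 siRNA and 48300 to 51900 with control siRNA, whereas it was higher with LKB1 siRNA in HuH-28 (12700 to 13500 against 9280 to 10200) and in SSP-25 (21500 to 22500 against 16700 to 17000). Leukocyte and endothelial markers, with 1 or 2 of 10 and 0 to 2 of 7 above a mean signal of 10, had no member that passed the test in the contrast. The samples are established lines, so these genes are not read here as a sign of other cell types. In bulk RNA, fewer cells that express a gene and less RNA per cell cannot be told apart.

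At an adjusted p under 0.05, 22.1% of genes rose and 18.6% fell in RBE, 14.3% and 15.5% in HuH-28, and 21.1% and 21.1% in SSP-25. In the RBE contrast 1565 genes (9.69%) were higher and 1148 (7.11%) lower at that threshold, around a median contrast of 0.02 over all genes. With the threshold on size, 338 genes (2.09%) were called higher and 251 (1.55%) lower. Without the second RBE sample with LKB1 siRNA the number called higher was 219, and with a pseudocount of 10 in place of 0.5 it was 157; restricted to genes whose mean signal was 20 or more, it was 210. RBE was not the only line that stood apart: the same contrast built around HuH-28 called 437 genes (2.71%) and the one around SSP-25 567 genes (3.51%).

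Of the 589 called genes, 434 responded in RBE in the direction of the contrast and 149 had no response that passed in RBE, and for 65 of these 149 both other lines moved the opposite way. The genes particular to RBE were 168 higher (1.04% of genes tested) and 91 lower (0.564%). Neither other line responded for 72 of the higher and 41 of the lower genes. Both other lines moved the opposite way for 18 and 19, and both moved the same way by less for 19 and 2. The 101 genes with opposite directions (0.626%) were evenly divided between 50 that rose in RBE and 51 that fell.

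**Figure D1:**
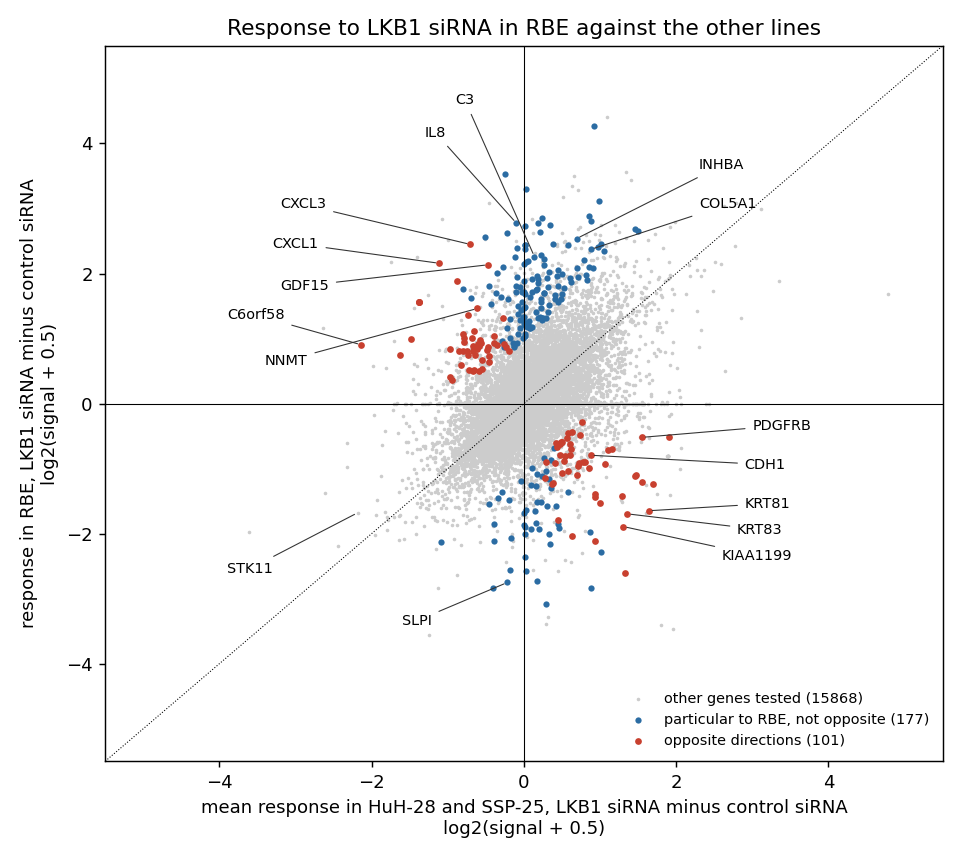
Response of each of the 16146 genes to LKB1 siRNA in RBE (vertical axis) against the mean response in HuH-28 and SSP-25 (horizontal axis), both as LKB1 siRNA minus control siRNA in log2(signal + 0.5), with the dotted line marking equal responses. Genes with opposite directions (red, 101) lie at the upper left and lower right, and the remaining 177 genes particular to RBE (blue) lie off the line of equal responses.

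A mean signal of 10 was reached in both other lines by 105 of the 168 higher genes and 38 of the 91 lower genes, and in neither by 34 and 26. Expression in all 3 lines was nevertheless less common among the 259 genes (123, 47.5%) than among all genes tested (67.1%). At the edge of the threshold, GBP1 and TRIM8 lay just inside with contrasts of 1.00, and FNIP2 and NLRP1 just outside, at -0.998 and 0.995.

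Neutrophil chemokines rose in RBE with LKB1 siRNA. CXCL1, CXCL3 and IL8 (now named CXCL8) are secreted ligands that attract neutrophils through the receptor CXCR2. Their genes lie close together on chromosome 4, and their transcription is a textbook target of NF-kB, a factor released from its inhibitor by inflammatory signals. The signal of CXCL1 was 51.8 and 56.5 in RBE with LKB1 siRNA and 14.3 and 9.66 with control siRNA. In HuH-28 it was 101 and 125 with LKB1 siRNA against 190 and 259 with control siRNA, and in SSP-25 71.4 and 54.8 against 107 and 208. The groups did not overlap in any line, and RBE moved up where the others moved down. The changes were 2.16 in RBE, -0.98 in HuH-28 and -1.25 in SSP-25 (log2, SE 0.30), giving a contrast of 3.27 ± 0.37 (SE, adjusted p = 0.00049).

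IL8 behaved otherwise in the other lines. Its signal was 214 and 225 in RBE with LKB1 siRNA and 28.1 and 35.6 with control siRNA, a rise of 2.78. In HuH-28 it was 765 and 732 against 901 and 923, and in SSP-25 320 and 268 against 240 and 316, and neither change passed (adjusted p = 0.17 and 0.67). The contrast was 2.87 ± 0.17 (SE, adjusted p = 2.6e-05). Even with LKB1 siRNA, both RBE samples stayed below every sample of the other lines. For CXCL3, at 11.8 and 11.7 in RBE with LKB1 siRNA against 1.65 and 1.84 with control siRNA, the changes were 2.45 in RBE, -0.47 in HuH-28 and -0.93 in SSP-25 (adjusted p = 7e-05, 0.23 and 0.019), with a contrast of 3.15 ± 0.33. CXCL1 and CXCL3 are closely similar in sequence, and how reads shared between them were assigned is not stated, so the values of the pair may not be independent.

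The promoters of these chemokines are shown because the genes moved together in RBE. They are RefSeq windows on GRCh38.p14, 300 bases long, which reach 250 bases before the start site. Capitals mark the NF-kB word GGANTTTCC, searched on both strands.
CXCL1 (chr4:73869143-73869442, plus strand): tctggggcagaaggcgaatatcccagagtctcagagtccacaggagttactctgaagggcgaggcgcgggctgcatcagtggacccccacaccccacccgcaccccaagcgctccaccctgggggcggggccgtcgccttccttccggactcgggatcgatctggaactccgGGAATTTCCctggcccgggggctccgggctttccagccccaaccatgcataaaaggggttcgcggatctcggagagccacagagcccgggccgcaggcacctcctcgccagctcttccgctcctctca
CXCL3 (chr4:74038640-74038939, minus strand): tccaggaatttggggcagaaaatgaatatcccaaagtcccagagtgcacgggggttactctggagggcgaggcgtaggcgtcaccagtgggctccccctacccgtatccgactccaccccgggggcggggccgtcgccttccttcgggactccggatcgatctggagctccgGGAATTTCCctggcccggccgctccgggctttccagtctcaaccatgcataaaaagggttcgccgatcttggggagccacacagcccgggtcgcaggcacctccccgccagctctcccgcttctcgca
CXCL8 (chr4:73740319-73740618, plus strand): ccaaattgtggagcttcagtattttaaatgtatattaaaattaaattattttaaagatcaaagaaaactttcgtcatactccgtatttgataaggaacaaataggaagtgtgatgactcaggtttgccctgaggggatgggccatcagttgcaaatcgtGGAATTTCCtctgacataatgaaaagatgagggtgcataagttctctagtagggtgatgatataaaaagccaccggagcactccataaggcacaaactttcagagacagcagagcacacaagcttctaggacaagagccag

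The word begins 78 bases before the start site in CXCL1 and CXCL3 and 91 bases before it in CXCL8, in the same letters. It was found in 1.64% of 35116 promoters of this length, counted singly. A gene of the list below counted when any of its promoters held the word, which is an unlike measure. Of the 28 tested genes in the list of chemokines, cytokines and NF-kB targets that have a promoter in the table, 16 hold the word, a list that was drawn up from known targets. It is present in 12 of the 16 of these that were higher in the RBE contrast. The match is a description of these windows, and the word was chosen with the responses known.

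Over that list, 24 of 40 genes were higher in the RBE contrast and 1 was lower, against 9.69% and 7.11% of all genes, and the median contrast was 0.98 against 0.02. In RBE itself 22 rose and 3 fell, in HuH-28 6 rose and 8 fell, and in SSP-25 2 rose and 19 fell. The 17 members called higher included CSF1, the growth factor of macrophages, and IL32, a cytokine of epithelial and immune cells. CSF1 stood at 407 and 462 in RBE with LKB1 siRNA against 223 and 229 with control siRNA, and fell in the other lines, with changes of 0.94 in RBE, -0.22 in HuH-28 and -0.57 in SSP-25 (contrast 1.34 ± 0.09, adjusted p = 4.8e-05). IL32, at 2215 and 2308 against 1025 and 969, rose by 1.18 in RBE and by 0.63 in HuH-28 but fell by 0.55 in SSP-25 (contrast 1.14 ± 0.07, adjusted p = 3e-05). C3, the central protein of complement, had 110 and 126 in RBE with LKB1 siRNA against 28.4 and 20.6 with control siRNA. It was at 9400 to 10820 in all 4 HuH-28 samples, with no response that passed there or in SSP-25 (0.02 and 0.26, adjusted p = 0.96 and 0.16), and its contrast was 2.12 ± 0.17. The following members, already counted above, were chosen after their values were seen. TNFAIP3 and NFKBIA, which restrain NF-kB, rose by 0.52 and 0.35 in RBE (contrasts 0.74 and 0.66), and the adaptor TRAF1 rose by 0.74 (contrast 1.47). BIRC3, an inhibitor of apoptosis, fell in all 3 lines and least in RBE, by 0.34, against falls of 1.03 (HuH-28) and 1.98 (SSP-25) (contrast 1.16).

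**Figure D2:**
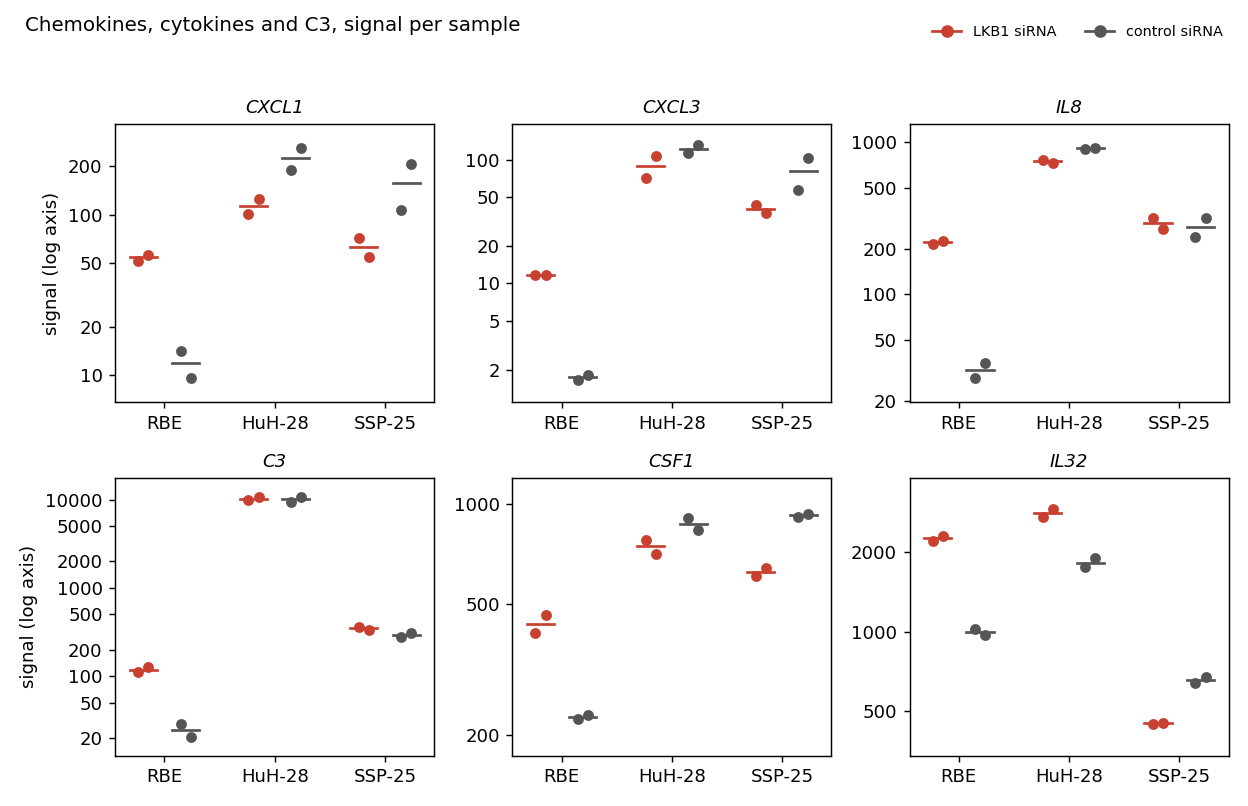
Signal of CXCL1, CXCL3, IL8, C3, CSF1 and IL32 in each of the 12 samples, on a log axis, with LKB1 siRNA (red) left of control siRNA (grey) in RBE, HuH-28 and SSP-25; points are samples and bars group means. In RBE both LKB1 siRNA samples lie above both control samples for all 6 genes, while in SSP-25 both lie below for CXCL1, CXCL3, CSF1 and IL32.

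In the list for HLA class I, 8 of 18 genes were higher in the RBE contrast and none lower, with a median contrast of 0.41. In RBE 11 members rose, against 0 in HuH-28 and 3 in SSP-25. NLRC5, the transactivator of HLA class I genes, had 46.1 and 51.7 in RBE with LKB1 siRNA and 17.7 and 21.2 with control siRNA, a rise of 1.31, and its contrast was 1.02 ± 0.13 (adjusted p = 0.00087). TAP1, the peptide transporter, rose by 0.55 in RBE with changes of 0.01 in HuH-28 and -0.11 in SSP-25 that did not pass (contrast 0.60 ± 0.10). PSMB10, an immunoproteasome subunit, rose by 0.24 in RBE and fell in HuH-28 (-0.47) and in SSP-25 (-0.89) (contrast 0.92 ± 0.10). The count of higher members was 3 without the second RBE sample with LKB1 siRNA, 4 without the first RBE sample with control siRNA and 3 without the second, and HLA genes may share reads among themselves.

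Interferon-stimulated genes were divided. Of 44, 8 were higher and 2 lower in the contrast (18.2% and 4.55%), with a median contrast of 0.16, and in RBE 13 rose and 13 fell. Without the second RBE sample with LKB1 siRNA 5 were higher, and the number lower was 0 or 1 without any of 10 of the samples. TRIM22, an antiviral gene, had 96.8 and 98.7 in RBE with LKB1 siRNA and 37.3 and 38.5 with control siRNA, and under 8 in all samples of the other lines, with a contrast of 2.10 ± 0.34 (adjusted p = 0.003). HERC5, a ligase of the ubiquitin-like protein ISG15, rose by 0.93 in RBE at signals near 1 (1.12 and 0.89 against 0.27 and 0.30), and in HuH-28 fell by 0.69, at 44.7 and 41.7 against 71.7 and 68.0.

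The transcription factor p53 is activated by stress, halts the cell cycle and induces repair and death genes. Of 26 targets tested, 20 were higher in the RBE contrast and none lower, with a median contrast of 0.53. In RBE 18 rose and none fell, in HuH-28 8 rose and 2 fell, and in SSP-25 7 rose and 10 fell. The member with the smallest p was GDF15, a stress hormone of the TGF-beta family. Its signal was 3920 and 4236 in RBE with LKB1 siRNA and 942 and 913 with control siRNA, against 363 and 356 and then 349 and 312 in HuH-28, and 13.5 and 13.1 and then 23.8 and 33.5 in SSP-25. It rose by 2.13 in RBE and fell by 1.06 in SSP-25, with 0.12 in HuH-28 (adjusted p = 0.53), and the contrast was 2.60 ± 0.16 (adjusted p = 2.6e-05).

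TP53I3, a quinone oxidoreductase induced by p53, rose by 0.90 in RBE and 0.49 in HuH-28 but fell by 1.19 in SSP-25, at 2518 and 2517 with LKB1 siRNA against 5998 and 5512 with control siRNA. FDXR, a mitochondrial reductase, had 1034 and 1026 in RBE with LKB1 siRNA and 554 and 521 with control siRNA, with changes of -0.15 (HuH-28) and -0.04 (SSP-25) that did not pass (adjusted p = 0.11 and 0.65). Its contrast was 1.03 ± 0.08. SESN1, a sestrin that restrains mTORC1, rose in all 3 lines, by 1.68 in RBE, 0.27 in HuH-28 and 0.72 in SSP-25, so that its contrast of 1.18 ± 0.10 is one of size. CDKN1A, the cyclin-dependent kinase inhibitor p21, had 7526 and 8044 in RBE with LKB1 siRNA against 4504 and 4328 with control siRNA. It rose by 0.82 in RBE and fell by 0.40 in SSP-25, with 0.08 in HuH-28 (adjusted p = 0.38), and its contrast of 0.98 ± 0.08 lies just under the threshold on size.

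The cell division program fell further in RBE than in the other lines. Of 44 genes of mitosis and the spindle, 38 were lower in the RBE contrast and none higher, against 7.11% and 9.69% of all genes, though none reached the threshold on size, and the median contrast was -0.53. In RBE 41 fell and 1 rose, in HuH-28 30 fell and 3 rose, and in SSP-25 20 fell and 6 rose. The median changes were -0.79 in RBE, -0.33 in HuH-28 and -0.17 in SSP-25. Where a gene fell both in RBE and in another line, the difference is one of degree. In HuH-28 30 of the 44 fell, but in SSP-25 only 20, and most of the others passed in neither direction. FOXM1, the factor that switches on genes of the G2 and M phases, had 1008 and 989 in RBE with LKB1 siRNA and 1705 and 1707 with control siRNA. It fell by 0.77 in RBE and by 0.21 in HuH-28, while SSP-25 had 2314 and 2384 against 2274 and 2202 (0.07, adjusted p = 0.27), and the contrast was -0.70 ± 0.06 (adjusted p = 0.00013).

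PLK1, the kinase that drives entry into and passage through mitosis, had 1002 and 926 in RBE with LKB1 siRNA against 1468 and 1467 with control siRNA. It fell by 0.61 in RBE and rose by 0.20 in SSP-25, and its contrast was -0.68 ± 0.06. KIF4A, a motor protein of chromosomes and the midzone, had 393 and 399 in RBE against 599 and 567, with no change that passed in HuH-28 or SSP-25 (adjusted p = 0.99 and 0.23), and a contrast of -0.59 ± 0.05. The promoters of this pair are shown because genes of this list moved together and are known to share 2 elements, the CCAAT box and the CHR element TTTGAA, both in capitals and both searched on both strands.
PLK1 (chr16:23678639-23678938, plus strand): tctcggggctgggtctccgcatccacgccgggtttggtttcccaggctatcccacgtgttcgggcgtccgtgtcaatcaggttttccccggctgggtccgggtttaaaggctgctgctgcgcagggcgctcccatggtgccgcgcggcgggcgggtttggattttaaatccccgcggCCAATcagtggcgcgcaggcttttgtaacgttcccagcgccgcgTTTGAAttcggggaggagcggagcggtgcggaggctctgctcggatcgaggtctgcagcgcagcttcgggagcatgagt
KIF4A (chrX:70289854-70290153, plus strand): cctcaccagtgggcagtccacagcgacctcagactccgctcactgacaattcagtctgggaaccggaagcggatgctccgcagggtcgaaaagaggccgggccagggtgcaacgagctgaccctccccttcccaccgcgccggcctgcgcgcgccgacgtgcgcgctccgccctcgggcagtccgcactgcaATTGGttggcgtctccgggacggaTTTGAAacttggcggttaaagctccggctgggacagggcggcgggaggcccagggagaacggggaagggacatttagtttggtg

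In PLK1 the CCAAT box begins 73 bases and the CHR element 29 bases before the start site, and in KIF4A 58 and 34 bases before it. Of the 37 genes of the list with a promoter in the table, 31 hold a CCAAT box and 26 a CHR element. Among all promoters, counted singly, the shares were 34.6% and 15.2%. A gene of the list counted when any of its promoters held the element, so these are unlike measures. Among the 32 of these genes that were lower in the RBE contrast the numbers were 27 and 22.

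The list of DNA replication and S phase showed the same direction. Of 42 genes 19 were lower in the RBE contrast and none higher, with a median contrast of -0.29, and 35 fell in RBE against 17 in HuH-28 and 16 in SSP-25. The number fell to 9 without the second RBE sample with LKB1 siRNA and to 10 without the first RBE sample with control siRNA. RRM2, a subunit of ribonucleotide reductase, had 1017 and 1021 in RBE with LKB1 siRNA against 1626 and 1656 with control siRNA, a fall of 0.69, and 2406 and 2371 against 2344 and 2429 in SSP-25, where the change did not pass (adjusted p = 0.99). TK1, a kinase that salvages thymidine, fell by 0.46 in RBE and rose by 0.18 in HuH-28 (contrast -0.62 ± 0.06), and MCM10, a factor of replication origins, fell by 0.89 in RBE and 0.39 in HuH-28 (contrast -0.65 ± 0.07).

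**Figure D3:**
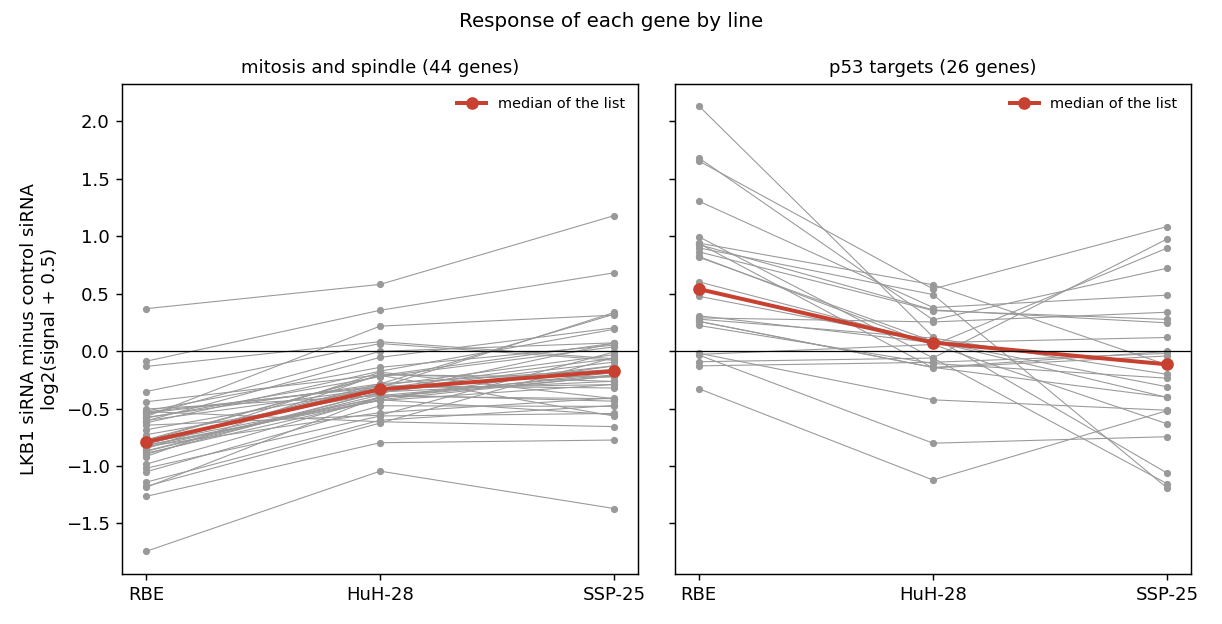
Response of each tested gene of mitosis and the spindle (44 genes, left) and of each p53 target (26 genes, right) in RBE, HuH-28 and SSP-25, as LKB1 siRNA minus control siRNA in log2(signal + 0.5), with grey lines joining the values of a gene and red marking the list median. The medians were -0.79, -0.33 and -0.17 for mitosis and 0.54, 0.07 and -0.12 for p53 targets.

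The gene with opposite directions and the largest absolute contrast was KRT81, a keratin of hair. Its signal was 1090 and 1046 in RBE with LKB1 siRNA and 3551 and 3158 with control siRNA. In HuH-28 it was 121 and 128 against 72.3 and 85.9, and in SSP-25 1159 and 1125 against 186 and 183. No groups overlapped, and RBE fell by 1.65 while HuH-28 rose by 0.66 and SSP-25 by 2.62 (contrast -3.29 ± 0.10, adjusted p = 5.5e-07). With LKB1 siRNA the RBE and SSP-25 samples all lay between 1046 and 1159.

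The hair keratins KRT82, KRT83, KRT85 and KRT86 showed the same pattern with contrasts of -2.77, -3.06, -2.93 and -2.58. They fell by 1.21, 1.70, 1.24 and 1.10 in RBE and rose by between 2.42 and 3.03 in SSP-25, whereas only KRT86 rose in HuH-28 (0.54, adjusted p = 0.00086). These genes are close neighbors of KRT81 in sequence and may share reads with it, so their values may not be independent. KRT83, for one, had 208 and 187 in RBE with LKB1 siRNA against 712 and 576 with control siRNA.

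Of the simple keratins of bile duct epithelium, KRT8 and KRT18 also moved in opposite directions, by less. KRT7 and KRT19 were lower in the contrast (-0.45 and -0.61), but their changes in RBE did not pass (-0.03 and -0.24, adjusted p = 0.77 and 0.23). KRT8 had 8552 and 8414 in RBE with LKB1 siRNA and 14530 and 12590 with control siRNA, against 3892 and 3968 and then 2499 and 2861 in HuH-28, and 7262 and 8199 and then 5972 and 6465 in SSP-25. It fell by 0.67 in RBE and rose by 0.56 and 0.31 in the other lines (contrast -1.11 ± 0.11, adjusted p = 3e-04). Its partner KRT18 fell by 0.60 in RBE and rose by 0.42 and 0.41 (contrast -1.02 ± 0.11), with 5272 and 5039 in RBE against 7931 and 7705. In the list of 17 keratins 7 were lower in the contrast and none higher. That number was 4 without any 1 of the RBE samples, without the first SSP-25 sample with LKB1 siRNA, or without the second SSP-25 sample with control siRNA. In HuH-28 10 keratins rose and in SSP-25 9, against 4 in RBE, and none fell in either other line, against 3 in RBE.

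CDH1, E-cadherin, the adhesion molecule of epithelia, had 126 and 106 in RBE with LKB1 siRNA and 226 and 179 with control siRNA, a fall of 0.80. In HuH-28 it had 94.4 and 94.7 against 29.98 and 33.3, a rise of 1.57, and in SSP-25 46.2 and 47.5 against 39.0 and 43.2 (0.19, adjusted p = 0.29). The contrast was -1.67 ± 0.16 (adjusted p = 0.00022). The study itself lists CDH1 as lower with LKB1 siRNA in HuH-28 and SSP-25 as well. It also reports less E-cadherin protein on Western blot after the knockdown in every line, HuH-28 and SSP-25 included. The direction of CDH1 in HuH-28 and SSP-25 is therefore not settled. Why the values used here differ was not tested. ITGB4, the integrin of hemidesmosomes, fell by 0.89 in RBE, at 1271 and 1331 against 2437 and 2385, and rose by 0.59 in SSP-25 and by 0.46 in HuH-28, where its signal was under 4 (contrast -1.41 ± 0.18). CGN, a protein of tight junctions, fell by 0.56 in RBE and rose by 0.92 in HuH-28, at 14.2 and 13.9 against 7.39 and 6.99 (contrast -0.94 ± 0.12). In SSP-25 it changed by -0.16 (adjusted p = 0.24, limma). The response of CGN in RBE could not be distinguished from that in SSP-25 (adjusted p = 0.078). Of the 8 epithelial markers 6 were lower in the contrast and 1 higher, with a median of -0.82. The exception, CLDN4, a claudin, rose by 0.72 in RBE, at 3022 and 3292 against 1940 and 1891, and had changes of 0.06 and -0.06 in the other lines. CLDN1, another claudin, went the same way, with a rise of 0.36 in RBE and falls in HuH-28 (-0.67) and SSP-25 (-1.22) (contrast 1.30 ± 0.14).

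In the list for epithelial to mesenchymal transition and epithelial identity, which mixes genes of both kinds, 4 of 28 genes were higher (14.3%, against 9.69% of all genes) and 3 lower (10.7%, against 7.11%), with 1 lower without the first RBE sample with control siRNA. SNAI2, a repressor of E-cadherin, rose by 0.64 in RBE, with 130 and 123 against 73.2 and 90.7, and its changes in HuH-28 and SSP-25 did not pass (contrast 0.81 ± 0.12). THY1, a surface protein of fibroblasts, rose in every line and most in RBE (1.89, against 0.68 and 0.99), where its signal stayed far below that of the others (58.5 and 64.1 against 14.4 and 18.0). The receptors for platelet-derived growth factor, which are fibroblast markers too, were lower in the contrast. PDGFRB had 6.71 and 5.99 in RBE with LKB1 siRNA and 8.60 and 10.1 with control siRNA, a fall of 0.52, and rose in HuH-28 (1.12) and in SSP-25 (1.98), at 99.4 and 107 against 25.5 and 26.1 (contrast -2.07 ± 0.18, adjusted p = 0.00014). PDGFRA fell by 1.29 in RBE, at 151 and 140 against 371 and 345, with changes of 0.17 and 0.54 that did not pass (contrast -1.65 ± 0.29).

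**Figure D4:**
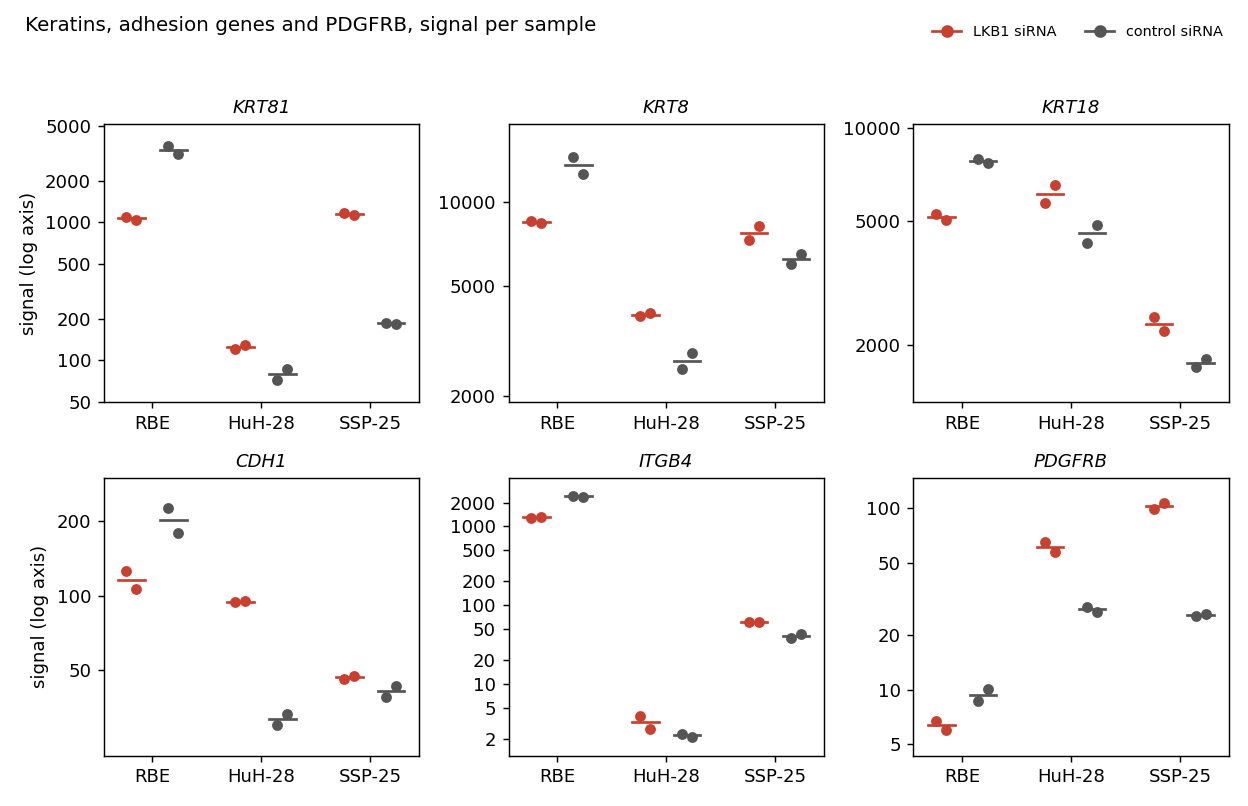
Signal of KRT81, KRT8, KRT18, CDH1, ITGB4 and PDGFRB in each of the 12 samples, on a log axis, with LKB1 siRNA (red) left of control siRNA (grey) in RBE, HuH-28 and SSP-25; points are samples and bars group means. Both LKB1 siRNA samples lie below both control samples in RBE and above them in HuH-28 and SSP-25 for all 6 genes.

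In the list of FGF, MET and PDGF signaling 8 of 32 genes were lower in the contrast and 2 higher, a count of 4 or 5 without any 1 of the RBE samples or of 3 of the SSP-25 samples. FGFR4, the receptor for the bile acid hormone FGF19, was abundant in RBE at 1291 and 1218 with LKB1 siRNA and 1165 and 1124 with control siRNA, a change of 0.13 that did not pass (adjusted p = 0.39). It rose in HuH-28 (1.36) and in SSP-25 (1.07), at 25.2 and 26.6 against 9.94 and 9.67 in HuH-28 and at 21.2 and 25.6 against 10.3 and 11.5 in SSP-25 (contrast -1.08 ± 0.13). EPHB3, an ephrin receptor, likewise changed by -0.33 in RBE (adjusted p = 0.13) and rose by 1.22 and 1.05. In the list of ERBB receptors, EGF ligands and their regulator ERRFI1, 6 of 14 genes were higher and 1 lower. AREG, amphiregulin, had 4779 and 4794 in RBE with LKB1 siRNA and 2784 and 2693 with control siRNA, a rise of 0.81. It fell in SSP-25, at 34.5 and 30.1 against 75.1 and 73.9 (contrast 1.48 ± 0.25). In HuH-28, where its signal was under 3 in every sample, its change did not pass (-0.15, adjusted p = 0.65, limma). The response of AREG in RBE could not be distinguished from that in HuH-28 (adjusted p = 0.057, limma), so AREG was not particular to RBE. HBEGF did not pass in RBE (-0.17, adjusted p = 0.082) and fell in HuH-28 (-0.59) and in SSP-25 (-1.12). The count of 6 was 3 without the second RBE sample with LKB1 siRNA or the first with control siRNA.

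TGFBI, a matrix protein induced by TGF-beta, rose in all lines, by 1.67 in RBE at 14080 and 14610 against 4672 and 4346, and by 0.33 and 0.50 in the others (contrast 1.26 ± 0.08). TGFBR1, the type I receptor, also rose in all lines, by 2.16, 1.01 and 1.65 (contrast 0.83 ± 0.07). In the list of TGF-beta genes and targets 11 of 34 were higher and 4 lower, and all 5 that were called were higher. The number lower was 1 without the second RBE sample with LKB1 siRNA and 2 without the first with control siRNA.

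INHBA, which encodes the subunit of activin A, had 35.6 and 38.2 in RBE with LKB1 siRNA and 4.85 and 7.26 with control siRNA. It rose by 2.54 in RBE and 1.15 in SSP-25, and by 0.23 in HuH-28 (adjusted p = 0.24), where it stood at 3056 to 3713 (contrast 1.84 ± 0.17). COL5A1, a chain of fibrillar collagen V, rose in all 3 lines, by 2.37 in RBE, 0.58 in HuH-28 and 1.18 in SSP-25, with 1786 and 1960 against 359 and 363 in RBE (contrast 1.49 ± 0.12). Among proteases of the matrix and their inhibitors 13 of 32 were higher and 1 lower, with a median contrast of 0.48, and 8 without the second RBE sample with LKB1 siRNA. MMP14, the membrane-bound activator of MMP2, rose by 1.06 in RBE, at 2164 and 2362 against 1094 and 1071, and by 0.27 in SSP-25 (contrast 1.04 ± 0.10). DSE, an epimerase that makes dermatan sulfate, rose by 1.47 in RBE, at 270 and 293 against 102 and 99.7, and by 0.28 in SSP-25, and fell by 0.27 in HuH-28 (contrast 1.47 ± 0.09, adjusted p = 3.1e-05).

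Targets of CREB and its CRTC coactivators, which lie downstream of the salt-inducible kinases, were higher in 10 of 30 cases and lower in 2, with a median contrast of 0.35. The number higher was 6 without either RBE sample with LKB1 siRNA or the second with control siRNA. In RBE 15 rose and 3 fell, in HuH-28 8 and 5, and in SSP-25 11 and 3. DUSP1, a phosphatase of MAP kinases, rose in all lines, with 570 and 529 against 142 and 135 in RBE, by 1.99 there, 0.77 in HuH-28 and 0.23 in SSP-25 (contrast 1.48 ± 0.08, adjusted p = 1.7e-05). SGK1, a kinase induced by stress and steroids, rose by 1.31 in RBE and 0.50 in SSP-25 (contrast 1.06 ± 0.09). Of 13 genes of LKB1's own complex and of AMPK, 3 were higher (23.1%, against 9.69% of all genes), 1 was lower and none was called, with a median contrast of 0.22 against 0.02. The number higher was 1 without the second RBE sample with either siRNA or the first SSP-25 sample with control siRNA, and 6 without the first HuH-28 sample with control siRNA, and the number lower was 0 to 2. CAMKK2, another kinase that activates AMPK, rose by 0.19 in RBE and fell by 0.26 and 0.49. Of 13 AMPK-related kinases only NUAK2 was higher (0.67 ± 0.07) and only MELK lower (-0.42 ± 0.06), and neither was called. These shares of 7.69% each lie near those of all genes (9.69% higher and 7.11% lower). NUAK2 rose by 0.72 in RBE and 0.27 in HuH-28 and fell by 0.17 in SSP-25. MELK fell in every line, by 1.28 in RBE, 0.62 in HuH-28 and 1.08 in SSP-25. Its fall in RBE could not be distinguished from that in SSP-25 (adjusted p = 0.064, limma).

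For a group of redox genes the contrast came from the other lines. In the list of NRF2 targets and glutathione 13 of 28 were higher and 3 lower in the contrast, while in RBE 6 rose and 12 fell. In HuH-28 1 rose and 16 fell, and in SSP-25 1 rose and 14 fell. NRF2 is the factor that induces antioxidant and detoxifying enzymes. AKR1C1, an aldo-keto reductase, had 1384 and 1588 in RBE with LKB1 siRNA and 1509 and 1435 with control siRNA (0.01, adjusted p = 0.97). It fell in HuH-28 (-1.17) and in SSP-25 (-1.07), at 20310 and 20680 against 42990 and 43230 in SSP-25 (contrast 1.13 ± 0.09). AKR1C3, which is near-identical to it and may share its reads, did likewise (contrast 1.24 ± 0.12). TXNRD1, a thioredoxin reductase, rose by 0.35 in RBE and fell by 0.45 and 0.23. SQSTM1, the autophagy receptor p62 and an NRF2 target, fell in every line but least in RBE, by 0.20 against 0.72 and 1.18 (contrast 0.75 ± 0.07). ADAM17, a protease that sheds cytokines and growth factors, had no change that passed in RBE (0.10) and fell by 0.53 and 0.79.

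**Figure D5:**
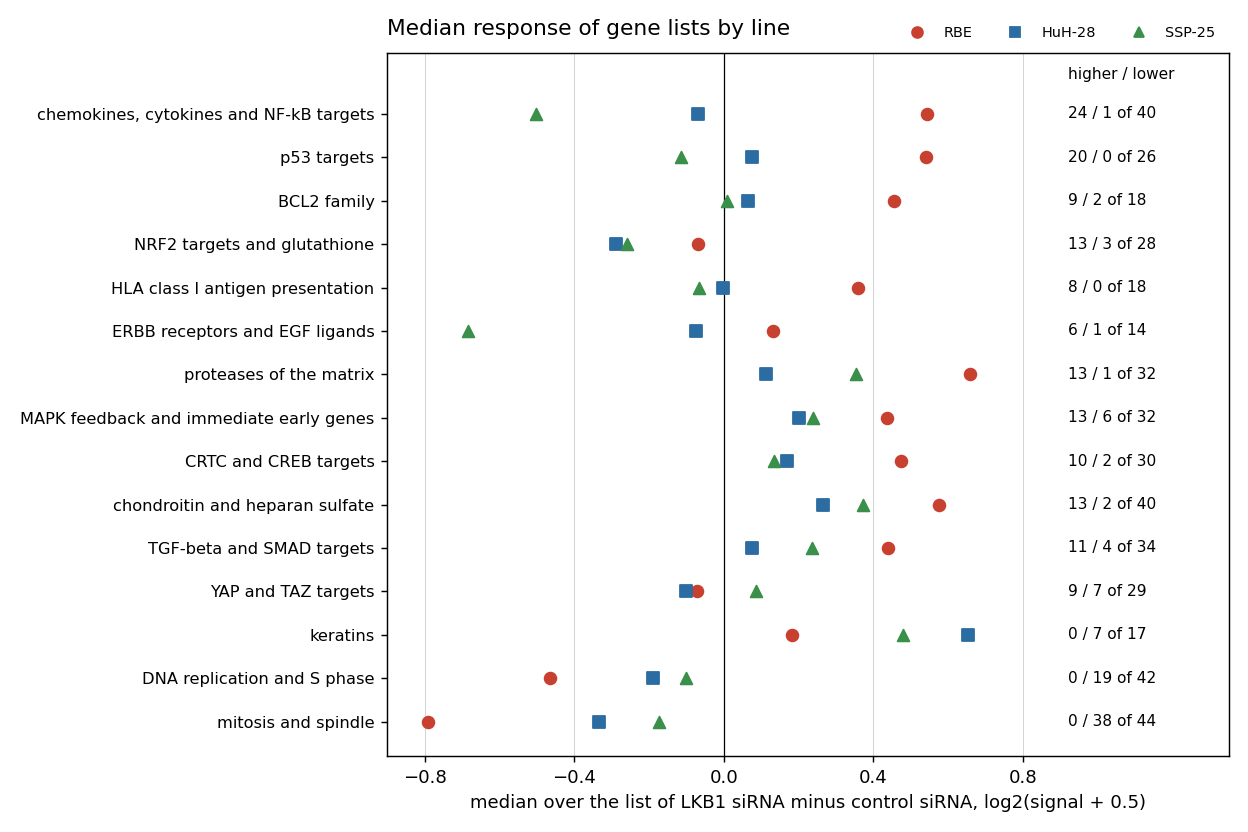
Median response of the 15 gene lists in which more than 30% of tested members were higher or more than 30% lower in the RBE contrast, for RBE (circles), HuH-28 (squares) and SSP-25 (triangles), as LKB1 siRNA minus control siRNA in log2(signal + 0.5); numbers at the right count members higher and lower in the contrast. RBE lies to the right of both other lines for 11 of the lists with more than 30% higher, lies between them for YAP and TAZ targets, and lies to the left for keratins, replication and mitosis.

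Of the 48 lists other than cell type markers, 12 had more than 30% of their tested members higher in the contrast and 3 more than 30% lower. Further members of the first kind were the BCL2 family, with 9 of 18 higher, among them BMF (0.80) and BAK1 (0.51), which promote cell death, and 2 lower, one of them BNIP3 (-0.74). That count was 5 without the second RBE sample with LKB1 siRNA. In the list of MAP kinase feedback and immediate early genes 13 of 32 were higher and 6 lower, and 8 were higher without the second RBE sample with LKB1 siRNA or without either RBE sample with control siRNA. Chondroitin and heparan sulfate genes had 13 of 40 higher and 2 lower, and 1 lower without any of 8 of the samples. Targets of YAP and TAZ had 9 of 29 higher and 7 lower. These were 5 higher without the first RBE sample with either siRNA, and 2 to 4 lower without any 1 of the RBE or SSP-25 samples. In 33 lists neither share passed 30%. Among these were oxidative phosphorylation (0 higher and 1 lower of 58), cytosolic ribosomal proteins (4 and 0 of 77), Hedgehog (0 and 0 of 18) and Wnt ligands, receptors and targets (5 and 4 of 42). For Wnt the numbers were as low as 3 higher (without the second RBE sample with either siRNA) and 1 lower (without the first RBE sample with control siRNA).

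Further genes led the contrast without belonging to these groups. Among those that rose in RBE, NNMT, nicotinamide N-methyltransferase, had 616 and 629 with LKB1 siRNA against 229 and 222 with control siRNA. It fell in both other lines, at 6440 and 7181 against 8685 and 9018 in HuH-28 and at 553 and 462 against 916 and 898 in SSP-25 (changes 1.46, -0.38 and -0.84, contrast 2.07 ± 0.10, adjusted p = 6.7e-06). PVRL4, the adhesion molecule nectin-4, had 79.4 and 80.5 in RBE against 15.6 and 14.1, and under 6 in every sample of the other lines (contrast 2.48 ± 0.33). SLC17A1, a sodium-coupled phosphate transporter of liver and kidney, had 43.7 and 38.0 against 8.30 and 9.04 in RBE and was under 0.1 elsewhere (contrast 2.14 ± 0.32).

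LHB, the beta subunit of luteinizing hormone, had 22.1 and 18.6 in RBE against 5.23 and 1.49, and rose in no other line (contrast 2.84 ± 0.53). The remaining leading genes of this direction were C6orf58 (3.04), DCAF12L2 (2.39), BAIAP2L2 (2.38) and the FAM25B, FAM25C and FAM25G rows (2.93 each), which hold identical values in all samples and count as 1 gene. C6orf58 rose by 0.90 in RBE, at 37.6 and 37.7 against 19.6 and 20.1. It fell by 1.56 in SSP-25 and by 2.72 in HuH-28, where it was near 0 (0.04 and 0 against 2.56 and 3.29). Its contrast ranged from 1.49 to 4.05 over the alternative settings. DCAF12L2 lost its call with a pseudocount of 0.1 (adjusted p = 0.054). BAIAP2L2 rose by 0.75 in RBE, less than it fell elsewhere, at very low signals. In HuH-28 it stood at 0.54 and 0.37 against 1.9 and 1.98 (change -1.36). SSP-25 had 0.04 and 0 against 1.49 and 1.40 (change -1.91). The contrast of BAIAP2L2 ranged from 0.87 to 3.56 over the alternative settings. The FAM25 rows rose by 1.55 in RBE and were near 0 in HuH-28. Their SSP-25 change of -2.79 came from 0.07 and 0 against 3.4 and 3.0, and their contrast ranged from 1.41 to 3.81.

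Among genes that fell in RBE, KIAA1199 (now CEMIP), which takes part in the breakdown of hyaluronan, had 26.8 and 26.0 with LKB1 siRNA against 114 and 86.3 with control siRNA. It rose in HuH-28, at 6512 and 6244 against 3992 and 4002, and in SSP-25, at 24.3 and 22.6 against 7.06 and 4.62 (changes -1.89, 0.67 and 1.94, contrast -3.20 ± 0.21, adjusted p = 3.5e-05). SLPI, an inhibitor of leukocyte proteases made by epithelia, had 9.92 and 22.4 in RBE against 102 and 105, with no change that passed in HuH-28 or SSP-25 (-0.24 and -0.20, contrast -2.53 ± 0.42). AGR2, a disulfide isomerase of secretory epithelia, fell by 2.01 in RBE, at 16.1 and 14.7 against 69.7 and 57.9 (contrast -2.34 ± 0.27). In HuH-28 AGR2 was near 0 (0.04 and 0 against 0.008 and 0), so that a fall could not show. Its change in SSP-25 did not pass (0.60, adjusted p = 0.051, limma).

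APLN, the peptide hormone apelin, fell by 1.79 in RBE, at 17.2 and 14.2 against 50.8 and 60.04, and rose by 0.53 in SSP-25 (contrast -2.24 ± 0.23). F13A1, the A subunit of coagulation factor XIII, had 74.0 and 75.6 against 272 and 272 in RBE and under 3 in all samples of the other lines (contrast -2.30 ± 0.35). CST4, cystatin S, fell by 1.92 in RBE, at 35.0 and 42.2 against 150 and 145 (contrast -2.02 ± 0.33). In SSP-25 CST4 was near 0 (0.10 and 0 against 0.03 and 0.004), so that a fall could not show. Its change in HuH-28 did not pass (0.09, adjusted p = 0.85, limma). HR, the corepressor hairless, fell by 1.11 in RBE and rose in HuH-28 (0.83) and in SSP-25 (2.09) (contrast -2.57 ± 0.31). LRRC66, PLEKHH2 and RAB37, with contrasts of -3.05, -2.37 and -2.33, had signals under 40 in RBE and under 12 in the other lines.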

How the data were processed

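RNA of 12 samples was sequenced, and 1 table of 18815 rows was used. Its values are signal, the authors' normalized reads per kilobase, deposited without counts, so depth and counting error are unknown. TopHat 1.2.0, edgeR and the build hg19 (GRCh37) are listed, without a role, in the submitters' notes on processing, whereas the study's methods name NextGENe and another build, and the sources do not settle which applies to the table. Values under 1e-06 were taken as 0. The 16146 genes that reached a signal of 1 in 2 or more samples were fitted as log2(signal + 0.5) with limma 3.58.1 in R 4.3.3, using 6 group means and a trend of variance on mean, and p-values were adjusted over all genes by Benjamini-Hochberg. Fold changes on this scale understate those of low genes. Named genes were the 15 largest contrasts in each direction among genes particular to RBE (group mean signal of at least 20 in RBE, RBE groups not overlapping), the 8 largest among opposite directions, up to 3 with the smallest p per list, and STK11. The members and lists were chosen with earlier results of these data known. Alternatives covered pseudocount, filter, scaling, trend, threshold, replicate block and each sample left out. A gene that the naming rule picked is not reported here.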

Additional observations from a re-analysis of the deposited data

Results flagged for a closer look

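For 9 genes the response to LKB1 siRNA in RBE differed from the mean response of HuH-28 and SSP-25 by a test of that difference (limma, adjusted over 16146 genes), and they were picked as the targeted gene and the 8 genes of opposite directions with the largest absolute values. The log2 differences were 0.50 for STK11, 3.27 for CXCL1, 3.15 for CXCL3 and 3.04 for C6orf58. They were -3.29 for KRT81, -3.20 for KIAA1199, -3.06 for KRT83, -3.05 for LRRC66 and -2.93 for KRT85. The adjusted p of STK11 was 0.037 and ranged between 0.028 and 0.16 when samples were left out.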

How the results depend on the processing

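The number of genes called in the RBE contrast (589) was 245 with a pseudocount of 10, 345 when the mean signal had to reach 20, 2713 with no threshold on size and 125 with an absolute log2 value above 2. Genes particular to RBE numbered 903 with no threshold on size and 79 with the stricter one, and genes with opposite directions 284 and 29. When each sample was left out in turn, the ranges were 408 to 607 called, 186 to 248 particular, and 82 to 113 opposite. Without the second RBE sample with LKB1 siRNA, 145 of the 259 particular genes remained. The STK11 contrast was 0.38 with quantile normalization (adjusted p = 0.097) and 0.50 with no trend (adjusted p = 0.073), and 0.37 to 0.63 with samples left out. The cause of these shifts was not tested. Against SSP-25 alone 395 genes were called lower, and against HuH-28 alone 231. With the replicate block within line the counts were 655, 281 and 122, and with 1 additive replicate block 577, 246 and 101; deviations of same-numbered samples correlated at 0.002 in RBE, 0.431 in HuH-28 and 0.033 in SSP-25, so not every line passed 0.1. The study's numbers stand for a first and a second test, and whether these were shared batches is not known; the block moved no count by over 1.5 times. With the way a 0 was written as a factor, chosen after seeing the data, the counts were 587, 253 and 105. No gene of the naming rule changed sign under the pseudocount, filter, scaling, trend, block or left-out-sample settings. Set against a single line, 3 did, at values that did not pass: STK11 (-0.09) and STMN3 (0.0025) against HuH-28 and HES1 (0.02) against SSP-25. With 2 samples a group and no counts, small differences at low signal could not be resolved.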
